A study of Mus musculus with 14 samples.

Results

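The genes of mitosis and of the G2 to M transition described here are 48 protein-coding genes of the mouse, chosen by their symbols: cyclins and CDK1 with their activators, mitotic kinases, the chromosomal passenger complex, spindle checkpoint and anaphase proteins, kinetochore proteins, mitotic kinesins, spindle and cytokinesis proteins, and proteins of chromosome structure. All 48 were found among the 31274 gene symbols of the deposited table. RNA sequencing measured them in the whole uterus of FVB/N mice, an inbred strain, that were intact, untreated and 2 months old. The 14 libraries are 4 from WT mice at diestrus, 3 from WT mice at estrus, 4 from HIF2A cKO mice at diestrus and 3 from HIF2A cKO mice at estrus. HIF2A, encoded by Epas1, is an oxygen-regulated transcription factor. The labels call the mutant a cKO and name neither a Cre line nor the deleted exons, so which cells carry the deletion is not known here. No label says that the libraries come from separate animals, so p-values measure only how far these samples spread, and that spread may be technical.

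Cells enter mitosis when cyclin A and cyclin B activate the kinase CDK1, after CDC25 phosphatases remove its inhibitory phosphates. Polo-like and Aurora kinases then drive the building of the spindle, kinetochores attach chromosomes to microtubules, and the spindle checkpoint holds back the anaphase-promoting complex until every chromosome is attached. That complex, with its activators CDC20 and FZR1, destroys cyclin B and securin, after which sister chromatids part and the cell divides. In dividing cells most of these genes are transcribed together late in the cycle under FOXM1, B-MYB and the MuvB complex, and ovarian steroids set when uterine cells divide.

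Values are FPKM, fragment counts scaled for transcript length and sequencing total. Differences are on the log2(FPKM + 1) scale, on which low genes appear to change less than they do. The test was limma over all 14278 genes that reached 1 FPKM in at least 3 libraries, and a gene is said to rise or fall where its Benjamini-Hochberg adjusted p was under 0.05. All 48 members passed that filter, many of them through their diestrus libraries alone. The 5 comparisons share the same 4 groups, so they are not independent of each other.

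Within groups the libraries correlated at r of 0.956 to 0.994 over genes. Markers of stroma, smooth muscle and epithelium, tissues that the uterus holds, were present in every library. Stromal sums were 2169 FPKM or more and smooth muscle sums 3794 FPKM or more in each. Epas1 could not serve as a check of the genotype labels, since the libraries labelled HIF2A cKO did not have less of it. Epas1 stood at 31.9, 32.7, 43.5 and 31.2 FPKM in WT and at 37.3, 35.1, 45.4 and 40.1 FPKM in HIF2A cKO at diestrus (exact two-sided permutation p = 0.2571). At estrus Epas1 stood at 34.2, 31.2 and 33.3 FPKM in WT and at 45.7, 39.9 and 38.0 FPKM in HIF2A cKO (exact two-sided permutation p = 0.1, the smallest that 3 against 3 allows). A deletion of part of the gene can leave its summed FPKM unchanged, and the table gives no exons. The diestrus libraries numbered 3 stood apart in both genotypes. Their lymphocyte and NK marker sums were 111 FPKM in WT and 63.7 FPKM in HIF2A cKO, against 11.6 to 16.6 FPKM in the other 6 diestrus libraries. Their endothelial, stromal and red cell sums were also the highest of their group. The 45S ribosomal transcript Rn45s was at 1890 FPKM in HIF2A cKO diestrus replicate 4 and at 819 FPKM in HIF2A cKO estrus replicate 1, against 208 to 578 FPKM elsewhere.

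Promoter stretches of 6 members are shown because these genes have among the largest differences below and because their promoters differ in the letters tied to late cell cycle genes. Each stretch lies just before the gene's start, runs 5′ to 3′ on the gene's own strand, and comes from RefSeq on build GRCm38.p6. Capitals mark CHR-type letters (TTTGAA or TTCGAA, read as TTCAAA or TTCGAA on the other strand), which can be bound by MuvB, and CCAAT letters (ATTGG on the other strand), which can be bound by NF-Y. The stretches lie at chr9:70421555-70421704 for Ccnb2 (minus strand), chr10:69352939-69353062 for Cdk1 (minus strand), chr4:118437353-118437493 for Cdc20 (minus strand), chr2:164769779-164769897 for Ube2c (plus strand), chr7:122159285-122159434 for Plk1 (plus strand) and chr11:99024190-99024339 for Top2a (minus strand).
Ccnb2: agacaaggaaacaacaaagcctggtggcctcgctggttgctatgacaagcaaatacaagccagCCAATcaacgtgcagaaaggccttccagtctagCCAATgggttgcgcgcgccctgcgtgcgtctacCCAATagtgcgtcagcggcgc
Cdk1: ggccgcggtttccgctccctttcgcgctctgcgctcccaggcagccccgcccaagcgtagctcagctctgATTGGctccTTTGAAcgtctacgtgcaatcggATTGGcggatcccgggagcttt
Cdc20: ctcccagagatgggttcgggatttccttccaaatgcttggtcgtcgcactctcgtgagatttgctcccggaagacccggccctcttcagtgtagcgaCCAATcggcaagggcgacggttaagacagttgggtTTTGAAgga
Ube2c: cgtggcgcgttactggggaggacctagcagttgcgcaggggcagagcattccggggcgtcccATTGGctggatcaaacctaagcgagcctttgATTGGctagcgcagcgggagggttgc
Plk1: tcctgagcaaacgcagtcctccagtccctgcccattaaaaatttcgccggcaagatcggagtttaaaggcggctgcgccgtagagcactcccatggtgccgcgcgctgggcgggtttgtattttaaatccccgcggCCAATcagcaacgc
Top2a: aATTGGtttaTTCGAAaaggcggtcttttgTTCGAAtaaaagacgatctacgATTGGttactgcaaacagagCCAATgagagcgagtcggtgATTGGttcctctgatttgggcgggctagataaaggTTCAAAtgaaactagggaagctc
Top2a carries CHR-type letters on several sites together with CCAAT on both strands, Cdk1 pairs TTTGAA with ATTGG on either side, and the Plk1 stretch shows CCAAT alone. The Ube2c and Ccnb2 stretches show CCAAT alone too. Each of these 2 genes, however, has 1 CHR-type match outside the printed letters, within 250 bases before its RefSeq start, where Plk1 has 0. Cdk1, Cdc20 and Top2a also have matches there that were not printed. RefSeq promoters were at hand for 39 of the 48 members. In the 250 bases before the start, CHR-type letters occurred in 16 members (41.0%), against 19.6% of 27025 genes and 14.2% of the tested genes in the promoter table. CCAAT occurred in 29 members (74.4%), against 37.5% of all genes and 40.0% of the tested genes. Both kinds stood together in 14 members (35.9%), against 7.0% of all genes and 5.4% of the tested genes. Where they meet, CHR-type letters and CCAAT can share at most 1 base, and a match describes letters, not binding.

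From diestrus to estrus, the members fell almost as a body in both genotypes. In WT, 47 of 48 fell and none rose, where 34.1% of all genes tested fell and 23.0% rose. In HIF2A cKO all 48 fell, where 36.5% of all genes fell and 25.5% rose. The median log2 difference of the members was -2.11 in WT and -2.66 in HIF2A cKO, against -0.09 and -0.08 over all genes tested. Since FPKM come from whole tissue, fewer dividing cells and less RNA per cell cannot be told apart.

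**Figure D1:**
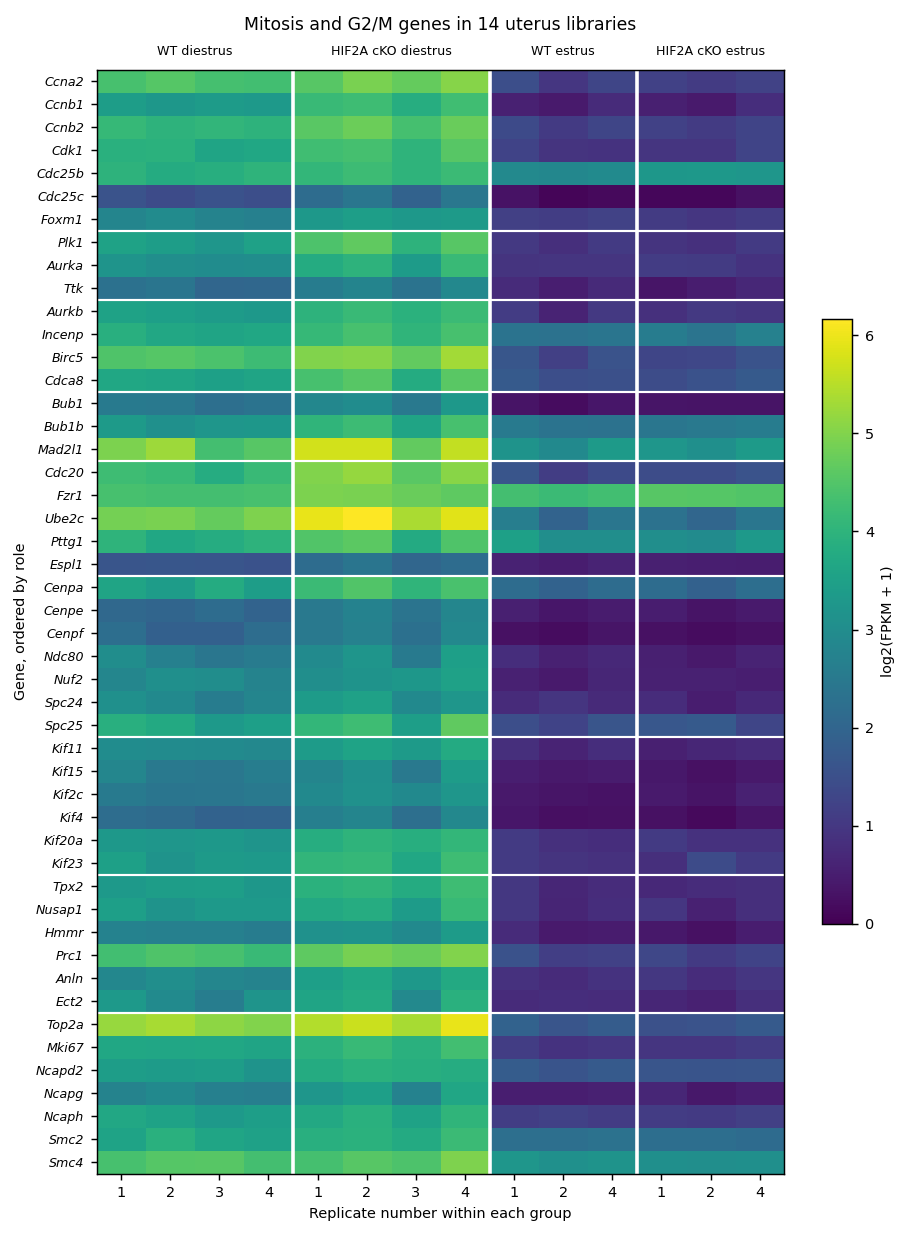
Colours show log2(FPKM + 1) of the 48 genes, ordered by role, in each of the 14 libraries. The 8 diestrus columns are bright and the 6 estrus columns dark for nearly every gene, HIF2A cKO diestrus replicate 3 is the darkest of its group, and Fzr1 keeps its colour best at estrus.

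In FPKM the loss was deep. The median member kept 10.2% of its diestrus FPKM at estrus in WT and 6.10% in HIF2A cKO. In WT 23 members kept under 10%, and 8 kept over 30%: Cdc25b, Incenp, Bub1b, Fzr1, Pttg1, Cenpa, Smc2 and Smc4. In HIF2A cKO 34 members kept under 10%, and Cdc25b, Fzr1, Pttg1 and Smc4 kept over 30%. A drop of at least 2-fold on the log2(FPKM + 1) scale was called for 45 members in WT, against 5.36% of all genes, and for 46 in HIF2A cKO, against 6.98%. Diestrus and estrus libraries did not overlap in 47 members in WT, Fzr1 being the exception, and in all 48 in HIF2A cKO, where 36.9% and 37.0% of all genes stood lower without overlap. At estrus 25 members had a mean under 1 FPKM in WT and 24 in HIF2A cKO, so their remaining levels are the least precise.

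**Figure D2:**
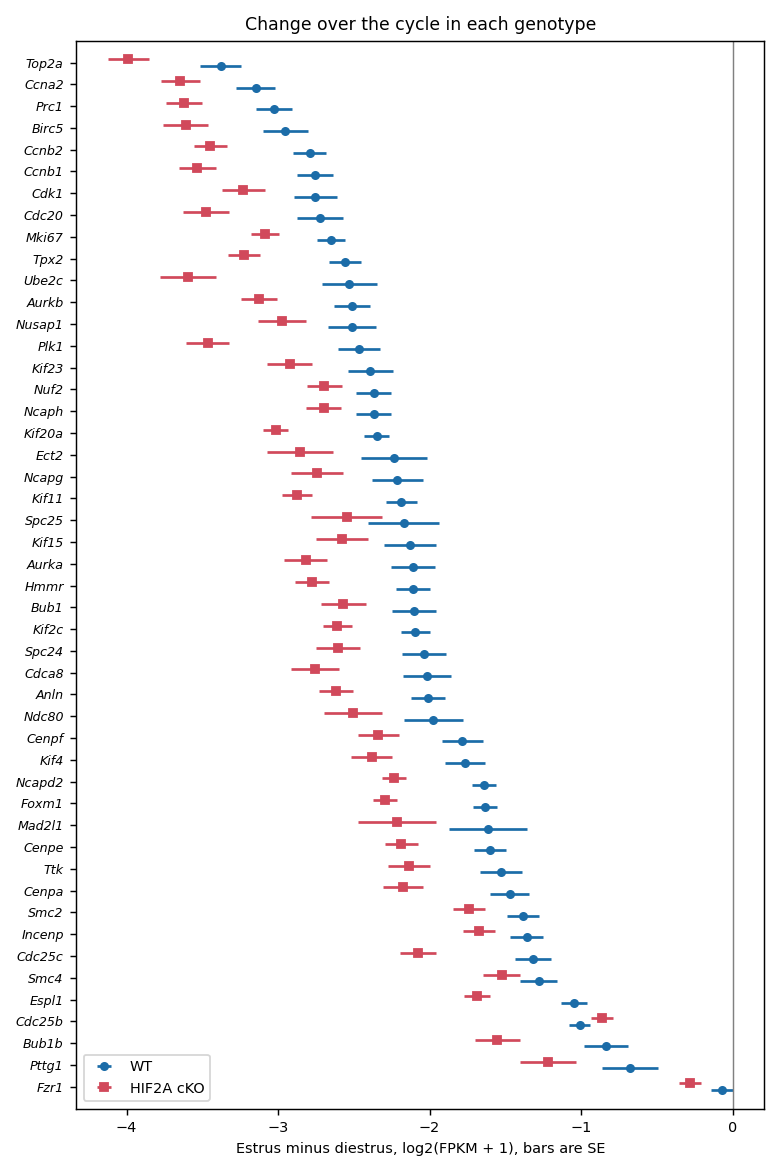
The log2 difference between estrus and diestrus is drawn for each gene in WT (circles) and HIF2A cKO (squares) with its SE, genes ordered by the WT value. Points run from Top2a at -3.38 and -3.99 to Fzr1 at -0.07 and -0.28, and the HIF2A cKO point lies left of the WT point for every gene but Cdc25b.

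The 7 genes of entry into mitosis all fell at estrus in both genotypes, with median log2 differences of -2.75 in WT and -3.23 in HIF2A cKO. Ccna2, cyclin A2, at chr3:36564865-36572150, stood at 19.8, 22.4, 19.5 and 18.6 FPKM in WT at diestrus and at 1.78, 0.975 and 1.43 FPKM at estrus. HIF2A cKO libraries held 22.4, 29.5, 25.1 and 32.2 FPKM of Ccna2 at diestrus and 1.29, 1.12 and 1.32 FPKM at estrus. Every estrus library lay far below every diestrus library, with log2 differences of -3.15, SE 0.1299, adjusted p = 8.99e-09 in WT and -3.64, SE 0.1299, adjusted p = 9.11e-10 in HIF2A cKO. Ccnb1, cyclin B1, at chr13:100778650-100786570, went from 9.76, 8.59, 9.43 and 9.01 FPKM to 0.473, 0.362 and 0.703 FPKM in WT, which left 5.57% of its diestrus level. In HIF2A cKO it went from 17.2, 18.02, 13.2 and 18.3 FPKM to 0.465, 0.368 and 0.737 FPKM, which left 3.14%. Cdk1, the kinase that both cyclins activate, at chr10:69335146-69352938, was at 14.004, 14.2, 11.1 and 11.7 FPKM in WT at diestrus and 1.35, 0.915 and 0.859 FPKM at estrus. Its HIF2A cKO levels were 18.2, 19.4, 14.996 and 22.5 FPKM and 0.927, 0.949 and 1.42 FPKM. The estrus libraries of the genotypes lay within the same narrow range of Cdk1, while their diestrus libraries lay apart. Ccnb2, cyclin B2, changed by -2.79 in WT and by -3.45 in HIF2A cKO on the log2 scale.

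The CDC25 phosphatases and FOXM1 differed in how much they kept. Cdc25c, a phosphatase that activates CDK1, was the lowest member of WT diestrus at 1.98, 1.68, 1.91 and 1.8 FPKM and dropped to 0.239, 0.067 and 0.122 FPKM at estrus. Cdc25c in HIF2A cKO went from 3.503, 4.32, 2.85 and 4.42 FPKM to 0.084, 0.074 and 0.203 FPKM. Cdc25b, at chr2:131186949-131198497, a phosphatase that starts CDK1 activation at the centrosome, was at 14.7, 12.8, 13.5 and 15.1 FPKM in WT at diestrus and at 6.498, 6.21 and 6.66 FPKM at estrus. Cdc25b thus changed by -1.01 in WT (SE 0.0697, adjusted p = 3.41e-07 in limma) and kept 46.05% of its level. Its HIF2A cKO libraries held 15.8, 17.6, 15.2 and 17.4 FPKM at diestrus and 8.57, 8.77 and 8.48 FPKM at estrus, a difference of -0.86 (SE 0.0697). Foxm1, the transcription factor that drives many of these genes, at chr6:128362967-128376146, went from 5.96, 6.79, 5.72 and 5.44 FPKM to 1.25, 1.16 and 1.32 FPKM in WT. In HIF2A cKO it went from 8.81, 9.902, 8.68 and 9.28 FPKM to 1.11, 0.965 and 1.15 FPKM, and no library of one stage reached the levels of the other. In exons of the annotation Cdc25c shares 12.7% of its bases with Gm3550 and Ccna2 shares 12.5% with Exosc9, both on the opposite strand. Strand use in counting was not given in the sources used here, so reads of such pairs cannot be told apart.

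The 3 mitotic kinases all fell in both genotypes, with median log2 differences of -2.11 and -2.82. Plk1, polo-like kinase 1, at chr7:122159439-122169873, stood at 10.7, 9.798, 8.45 and 10.5 FPKM in WT at diestrus and at 1.03, 0.779 and 1.07 FPKM at estrus. Plk1 in HIF2A cKO stood at 20.6, 24.2, 14.8 and 22.4 FPKM and 0.902, 0.796 and 1.06 FPKM. The HIF2A cKO diestrus libraries were all above the WT ones, and no such gap was seen at estrus. Aurka, Aurora kinase A of the spindle poles, at chr2:172356190-172370535, went from 8.07, 7.302, 6.93 and 7.07 FPKM to 0.91, 0.932 and 0.946 FPKM in WT and from 12.9, 14.9, 9.48 and 17.1 FPKM to 1.13, 1.09 and 0.876 FPKM in HIF2A cKO. Ttk, the checkpoint kinase MPS1, changed by -1.53 in WT and -2.14 in HIF2A cKO.

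The chromosomal passenger complex, Aurora B with its 3 partners, corrects faulty attachments and later guides cytokinesis, and all 4 genes fell in both genotypes. Aurkb, its kinase, went from 10.7, 10.1, 9.43 and 8.77 FPKM to 1.15, 0.531 and 1.02 FPKM in WT and from 14.7, 17.1, 14.2 and 17.5 FPKM to 0.795, 1.05 and 0.945 FPKM in HIF2A cKO. Birc5, survivin, at chr11:117849251-117855743, was the most abundant of the 4, with 20.9, 22.4, 20.3 and 17.7 FPKM in WT diestrus and 2.11, 1.23 and 1.97 FPKM in WT estrus. In HIF2A cKO Birc5 was at 30.7, 31.9, 24.6 and 38.6 FPKM and 1.46, 1.48 and 1.97 FPKM. For both genes the 6 estrus libraries lay close together, far under the 8 diestrus libraries. Incenp, the scaffold of the complex, kept more: 33.8% of its WT diestrus mean and 27.5% of its HIF2A cKO one. Cdca8, borealin, changed by -2.02 and -2.76 on the log2 scale.

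The spindle checkpoint genes fell unequally. Bub1, a kinase of the checkpoint, at chr2:127801122-127831865, went from 4.83, 4.58, 3.75 and 4.08 FPKM to 0.25, 0.153 and 0.3 FPKM in WT and from 6.19, 6.99, 4.63 and 8.71 FPKM to 0.269, 0.253 and 0.261 FPKM in HIF2A cKO. Bub1b, which encodes BUBR1, an inhibitor of the anaphase-promoting complex, was at 9.27, 7.58, 8.46 and 8.54 FPKM in WT at diestrus and 4.79, 4.09 and 4.02 FPKM at estrus. Its HIF2A cKO libraries held 15.2, 17.8, 11.03 and 19.8 FPKM and 4.36, 4.61 and 5.06 FPKM. Bub1b kept 50.8% of its level in WT where Bub1 kept 5.44%, and the log2 differences were -0.84 (adjusted p = 0.000442, limma) and -2.10 (adjusted p = 3.63e-07). Mad2l1, the checkpoint protein that binds CDC20, changed by -1.62 in WT and -2.22 in HIF2A cKO, with the widest SE of the members, 0.259.

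Among the genes of anaphase and exit from mitosis, the activators of the anaphase-promoting complex parted. Cdc20, the activator of metaphase, at chr4:118432901-118437352, went from 17.99, 16.9, 13.2 and 16.98 FPKM in WT diestrus to 2.08, 1.17 and 1.601 FPKM in WT estrus. In HIF2A cKO Cdc20 went from 30.8, 35.6, 23.1 and 32.3 FPKM to 1.703, 1.69 and 2 FPKM. Fzr1, the activator that works in late mitosis and G1 and is also used by cells that do not divide, at chr10:81366222-81378516, stood at 19.6, 18.9, 19.1 and 19.6 FPKM in WT diestrus and 19.1, 17.5 and 18.6 FPKM in WT estrus. Its WT stages overlapped, and the difference of -0.07 (95% interval -0.23 to 0.09, adjusted p = 0.434 in limma) was not called. In HIF2A cKO Fzr1 was at 29.7, 29.4, 25.8 and 23.6 FPKM at diestrus and 22.5, 22.1 and 21.6 FPKM at estrus, a difference of -0.28 (SE 0.0731, adjusted p = 0.00499). Fzr1 was therefore the most abundant member at estrus in both genotypes, with means of 18.4 and 22.1 FPKM.

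Ube2c, the ubiquitin-conjugating enzyme of the anaphase-promoting complex, at chr2:164769898-164778822, stood at 28.5, 29.4, 24.98 and 30.3 FPKM in WT diestrus and 5.19, 2.91 and 4.37 FPKM in WT estrus. Ube2c was the most abundant member in HIF2A cKO diestrus, at 60.9, 70.6, 40.6 and 58.6 FPKM, and fell to 3.97, 3.07 and 4.34 FPKM at estrus. Its exons share 22.8% of their bases with Tnnc2 on the opposite strand. Pttg1, securin, which holds separase inactive, was at 15.2, 11.8, 13.2 and 14.9 FPKM and 10.4, 7.23 and 7.26 FPKM in the WT stages and at 21.6, 23.3, 12.7 and 21.2 FPKM and 7.31, 6.896 and 9.02 FPKM in HIF2A cKO. Its differences were -0.68 (adjusted p = 0.00786, limma) and -1.22 (adjusted p = 0.000106), the second smallest difference in WT and the third smallest in HIF2A cKO. Espl1, separase itself, changed by -1.05 and -1.68 from the low diestrus means of 2.07 and 3.61 FPKM.

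All 7 centromere and kinetochore genes fell in both genotypes, within log2 differences of -2.37 to -1.47 in WT and -2.69 to -2.18 in HIF2A cKO. Cenpa, the histone H3 variant that marks centromeres, went from 11.2, 9.62, 12.9 and 9.82 FPKM to 3.54, 2.8 and 3.49 FPKM in WT and from 17.5, 21.3, 15.3 and 20.1 FPKM to 3.51, 2.75 and 3.68 FPKM in HIF2A cKO. Ndc80, which binds microtubules at the outer kinetochore, went from 7.13, 5.39, 4.32 and 4.88 FPKM to 0.737, 0.489 and 0.629 FPKM in WT and from 6.75, 8.25, 4.73 and 10.1 FPKM to 0.467, 0.35 and 0.53 FPKM in HIF2A cKO. Cenpa kept 30.1% of its WT level and Ndc80 kept 11.4%. Nuf2, Spc24 and Spc25, the partners of NDC80 in its 4-protein complex, changed by -2.37, -2.04 and -2.17 in WT. Cenpe, a kinesin of the kinetochore, and Cenpf, a large kinetochore protein, changed by -1.60 and -1.78 in WT and by -2.19 and -2.34 in HIF2A cKO.

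The 6 mitotic kinesins all fell, and their WT log2 differences lay between -1.77 for Kif4 and -2.39 for Kif23. Kif11, the motor that pushes spindle poles apart, at chr19:37376403-37421859, went from 7.04, 6.81, 6.66 and 6.29 FPKM to 0.788, 0.542 and 0.75 FPKM in WT and from 9.51, 10.97, 9.33 and 12.5 FPKM to 0.45, 0.583 and 0.686 FPKM in HIF2A cKO. Kif20a and Kif23, motors of the central spindle and cytokinesis, changed by -2.35 and -2.39 in WT and by -3.02 and -2.92 in HIF2A cKO. Kif2c, a microtubule depolymerase at centromeres, changed by -2.10 and -2.61, and Kif15, a spindle motor that works beside KIF11, by -2.13 and -2.58. Kif20a shares 29.3% of its exonic bases with Cdc23, and Kif4 shares 15.1% with Pdzd11, both on the opposite strand.

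All 6 spindle and cytokinesis genes fell, none with a log2 difference above -2.01. Tpx2, which activates Aurora A on the spindle, at chr2:152847964-152895321, went from 9.1, 9.69, 9.89 and 8.65 FPKM to 0.982, 0.574 and 0.725 FPKM in WT and from 14.2, 15.5, 12.8 and 17.9 FPKM to 0.639, 0.711 and 0.786 FPKM in HIF2A cKO. Prc1, which bundles microtubules of the central spindle, at chr7:80294450-80316259, went from 18.5, 21.1, 19.6 and 16.9 FPKM to 1.91, 1.22 and 1.28 FPKM in WT and from 23.8, 28.8, 25.8 and 31.1 FPKM to 1.48, 1.08 and 1.35 FPKM in HIF2A cKO. The difference of Prc1, -3.03 in WT and -3.62 in HIF2A cKO, was the third largest in each genotype, after Top2a and Ccna2. Nusap1 and Hmmr, spindle-associated proteins, changed by -2.51 and -2.11 in WT. Anln, which encodes anillin of the contractile ring, and Ect2, the exchange factor that activates RhoA there, changed by -2.01 and -2.23.

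The 7 genes of chromosome structure all fell in both genotypes. Top2a, the topoisomerase that untangles sister chromatids, at chr11:98992943-99024189, was the most abundant member of WT diestrus at 35.9, 39.7, 33.4 and 30.6 FPKM and stood at 2.799, 2.06 and 2.49 FPKM at estrus. HIF2A cKO held 42.7, 49.8, 40.04 and 61.4 FPKM of Top2a at diestrus and 1.901, 1.999 and 2.33 FPKM at estrus. Its difference was the largest of the 48, -3.38 in WT (SE 0.135, adjusted p = 7.62e-09) and -3.99 in HIF2A cKO (SE 0.135, adjusted p = 7.99e-10). Mki67, the Ki-67 protein that coats mitotic chromosomes and is used to mark dividing cells, at chr7:135689784-135716361, went from 11.8, 11.6, 11.7 and 11.1 FPKM to 1.19, 0.86 and 0.957 FPKM in WT. In HIF2A cKO Mki67 went from 14.6, 16.7, 13.97 and 18.6 FPKM to 0.933, 0.936 and 1.09 FPKM. The 5 condensin genes kept unequal shares. Smc2, one of its core ATPases, went from 10.9, 14.1, 11.3 and 10.5 FPKM to 3.75, 3.77 and 3.995 FPKM in WT and from 13.9, 14.2, 12.6 and 17.3 FPKM to 3.67, 3.703 and 3.43 FPKM in HIF2A cKO. Smc4, the other ATPase, went from 19.6, 22.1, 22.7 and 19.1 FPKM to 8.45, 7.57 and 7.97 FPKM in WT and from 19.4, 22.8, 20.8 and 30.5 FPKM to 7.44, 7.21 and 7.36 FPKM in HIF2A cKO. Smc2 and Smc4 kept 32.8% and 38.3% of their WT diestrus levels, whereas the condensin I subunits Ncapg, Ncaph and Ncapd2 kept 7.82%, 11.5% and 24.6%.

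At diestrus, most members were higher in HIF2A cKO than in WT. Of the 48, 38 rose, none fell and 10 were not called, where 13.8% of all genes tested rose. All 48 differences were positive, where 7450 of 14278 genes tested had positive ones, and the median was 0.53 against 0.02 over all genes tested. As a ratio of mean FPKM the median member was 1.54-fold higher, from 1.12-fold for Smc4 to 2.08-fold for Plk1. HIF2A cKO and WT libraries did not overlap in 33 members, all higher in HIF2A cKO, where 8.80% of all genes stood higher without overlap. No member reached a called 2-fold rise on the log2(FPKM + 1) scale, where 1.03% of all genes did.

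**Figure D3:**
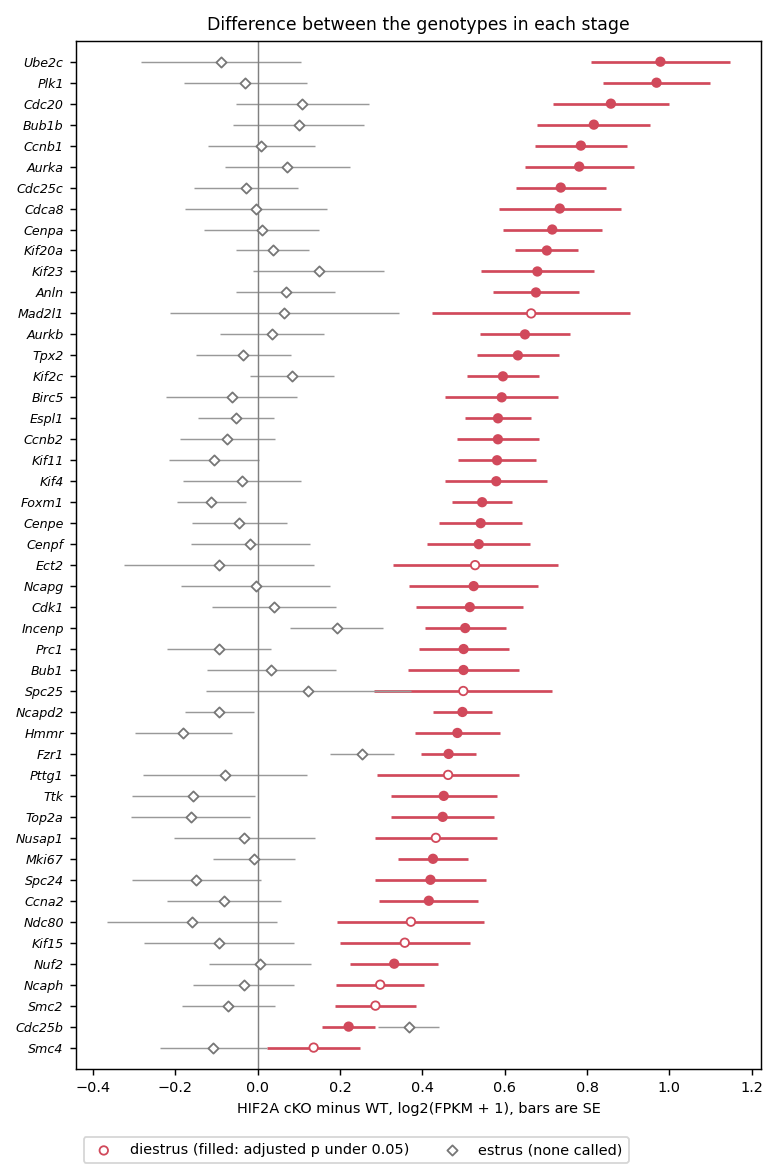
Points are the log2 difference between HIF2A cKO and WT with its SE, at diestrus (circles, filled where the adjusted p was under 0.05) and at estrus (diamonds), genes ordered by the diestrus value. Diestrus points run from Smc4 at 0.14 to Ube2c at 0.98, and estrus points lie around 0, with Cdc25b at 0.37 and Fzr1 at 0.25 the highest.

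On the log2(FPKM + 1) scale the largest rises at diestrus were those of Ube2c, Plk1 and Cdc20. By ratio of mean FPKM, Cdc25c and Bub1b stood above Cdc20. Ube2c rose by 0.98 (SE 0.169, adjusted p = 0.00409 in limma), from 28.3 ± 2.34 FPKM (SD, n = 4) to 57.7 ± 12.5 FPKM (SD, n = 4). Plk1 rose by 0.97 (SE 0.129, adjusted p = 0.00225 in limma), from 9.86 ± 1.02 to 20.5 ± 4.08 FPKM. The lowest HIF2A cKO library of each gene, replicate 3, was still above the highest WT library. Cdc20 rose by 0.86 (SE 0.1401, adjusted p = 0.00373), or 1.87-fold in mean FPKM. Fzr1, its counterpart, rose by 0.46 (adjusted p = 0.00258), and its WT libraries lay within a narrow band under all 4 HIF2A cKO libraries.

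**Figure D4:**
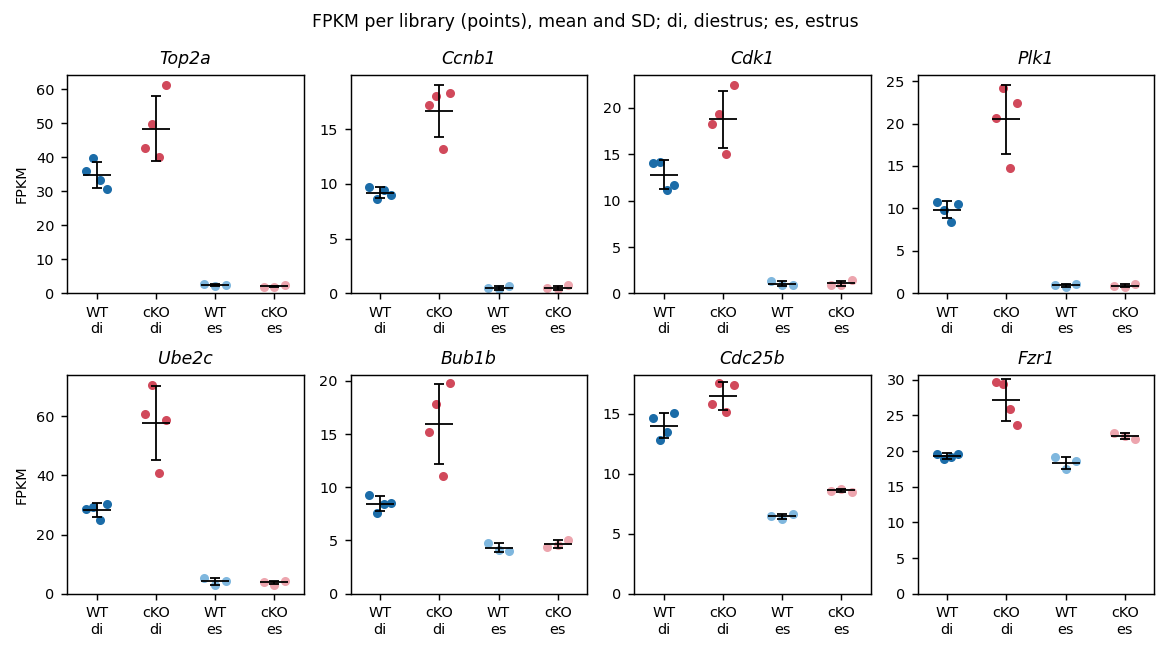
FPKM of 8 members in each library (points) with the group mean and SD (lines), at diestrus (di) and estrus (es), axes starting at 0. All 4 HIF2A cKO diestrus points lie above the 4 WT ones in each panel, the estrus points of Top2a, Ccnb1, Cdk1, Plk1 and Ube2c lie near the floor, and Cdc25b and Fzr1 stand apart between the genotypes at estrus too.

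All 7 genes of entry into mitosis rose. Ccnb1 rose 1.81-fold (0.78, SE 0.112, adjusted p = 0.00255), Cdc25c 2.05-fold (0.74, SE 0.1096, adjusted p = 0.00274) and Foxm1 1.53-fold (0.55, SE 0.0731, adjusted p = 0.00225). Ccna2 rose less, 1.36-fold (0.42, SE 0.1203, adjusted p = 0.0274), and Cdk1 rose 1.47-fold (0.52, SE 0.13001, adjusted p = 0.0156). Cdc25b, at 1.18-fold, had the smallest rise that was called, 0.22 (SE 0.0645, adjusted p = 0.0283), with its 4 HIF2A cKO libraries just above the 4 WT libraries. The B-type cyclin and CDC25C thus had larger differences than cyclin A2, although these were not tested against each other. In the 3 mitotic kinases the median difference was 0.78, and Aurka rose 1.85-fold (0.78, SE 0.132, adjusted p = 0.00394). Ttk rose by 0.45 although its genotypes overlapped.

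The chromosomal passenger genes all rose, by 0.50 for Incenp, 0.59 for Birc5, 0.65 for Aurkb and 0.73 for Cdca8. Of the checkpoint genes Bub1b rose 1.89-fold (0.82, SE 0.137, adjusted p = 0.00393) and Bub1 1.54-fold (0.50, SE 0.136, adjusted p = 0.0212). Mad2l1 was 1.62-fold higher in the mean, but its libraries, at 29.8, 37.3, 19.1 and 22.6 FPKM in WT and 52.5, 52.2, 24.7 and 47.1 FPKM in HIF2A cKO, overlapped, and its difference was not called (adjusted p = 0.0608). Espl1 rose by 0.58, and Pttg1 was not called at 0.46 (adjusted p = 0.0675).

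In the kinetochore group 5 of 7 genes rose. Cenpa rose 1.703-fold (0.72, SE 0.121, adjusted p = 0.00393), and Cenpe and Cenpf rose by 0.54 and 0.54. The NDC80 complex had smaller differences than Cenpa: Nuf2 rose by 0.33 and Spc24 by 0.42, both with overlap between the genotypes, and Ndc80 at 0.37 (adjusted p = 0.142) and Spc25 at 0.50 (adjusted p = 0.106) were not called. Of the kinesins 5 of 6 rose, by 0.58 for Kif4, 0.58 for Kif11, 0.60 for Kif2c, 0.68 for Kif23 and 0.70 for Kif20a. Kif20a had the lowest adjusted p of the members, 0.00121, and Kif15 was not called at 0.36 (adjusted p = 0.114). Tpx2, Prc1, Anln and Hmmr rose by 0.63, 0.50, 0.68 and 0.48, while Nusap1 at 0.43 (adjusted p = 0.05003) and Ect2 at 0.53 (adjusted p = 0.0708) were not called.

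The chromosome structure genes had the lowest median of the role groups, 0.43, with 4 of 7 called. Top2a rose 1.39-fold (0.45, SE 0.125, adjusted p = 0.0237) and Mki67 1.38-fold (0.43, SE 0.0859, adjusted p = 0.00688), in both cases without overlap. Ncapd2 rose by 0.50 and Ncapg by 0.52. The condensin ATPases and Ncaph had the smallest differences beside Cdc25b. Smc4 differed by 0.14 (95% interval -0.11 to 0.38, adjusted p = 0.387), Smc2 by 0.29 (95% interval 0.07 to 0.50, adjusted p = 0.0506) and Ncaph by 0.30 (95% interval 0.07 to 0.53, adjusted p = 0.05902).

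The members varied more between the HIF2A cKO diestrus libraries, with a median coefficient of variation of 17.0%, than between the WT ones, at 9.65%, a difference that was not tested. HIF2A cKO diestrus replicate 3 was the lowest of its group in 40 of 48 members, and replicate 4 was the highest in 34. The FPKM of the 48 genes summed to 775, 874, 631 and 916 in the HIF2A cKO diestrus libraries and to 547, 542, 490 and 493 in the WT ones, so the genotypes did not overlap in the sum. Summed markers of cell types also differed between these libraries. The summed FPKM of 13 of 14 epithelial markers, Ltf being left out as listed at 0 throughout a group, were 724, 680, 510 and 577 in WT diestrus and 1044, 1130, 602 and 878 in HIF2A cKO diestrus. Within the epithelial list 2 of 13 genes rose, a share near the 13.8% of all genes tested that rose, and 10 were not called. Elf3 rose the most, by 1.71 (adjusted p = 0.0126 in limma). Foxa2, a factor of uterine glands, fell, with a difference of -1.61 (adjusted p = 0.00852 in limma). Stromal sums ran from 2397 to 3396 FPKM in WT and from 2620 to 3348 FPKM in HIF2A cKO, and macrophage sums from 420 to 628 FPKM and from 387 to 437 FPKM. The part of these cell types in the diestrus difference was not tested. Without both diestrus libraries numbered 3, a choice made after the data were seen, 47 of 48 members rose with a median of 0.62. Without the libraries of highest Rn45s, also chosen after the data were seen, 30 rose with a median of 0.48. Shares of all genes called in these fits are not given here.

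**Figure D5:**
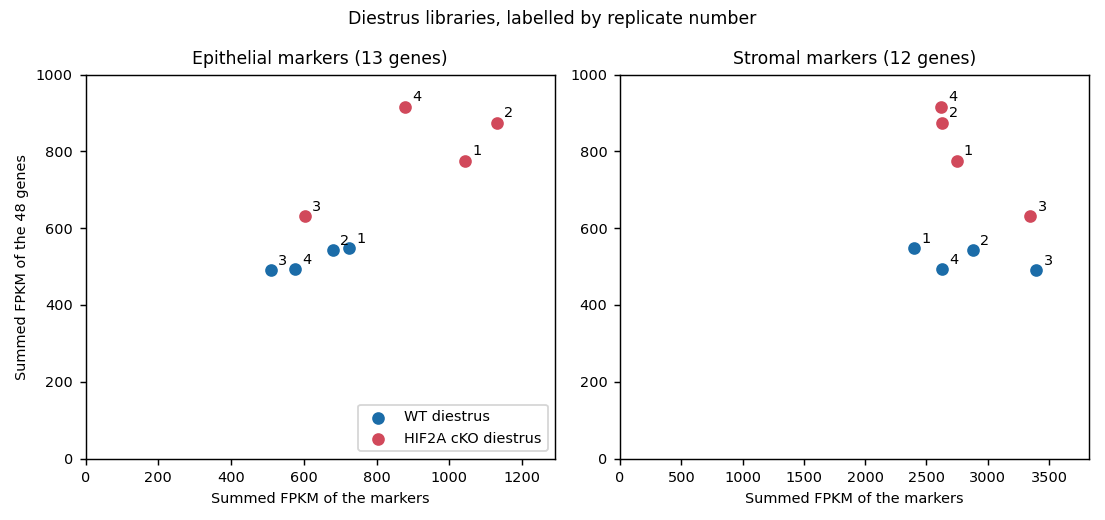
Each diestrus library is placed by its summed FPKM of the 48 genes and of 13 epithelial (left) or 12 stromal (right) marker genes, with its replicate number. HIF2A cKO replicates 1, 2 and 4 lie highest on both the epithelial and the 48-gene axis, and the libraries numbered 3 have the most stromal and the least epithelial signal of their groups.

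The count at diestrus depended on how the spread was estimated. In a fit of the diestrus libraries alone 25 members rose, against 3.12% of all genes called in either direction in that fit. With the replicate number as a block, the diestrus libraries alone gave 35 risen members, in which Bub1, Cdc25b, Ncapg, Nuf2 and Top2a were lost and Ect2 and Mad2l1 gained. The share of all genes called with that block is not given here.

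At estrus, no member differed between the genotypes in limma, where 0.105% of all genes tested were called in either direction. The members' median was -0.03, against 0.01 over all genes, and their differences ran from -0.18 for Hmmr to 0.37 for Cdc25b. At an unadjusted p under 0.05 stood 2 members, Cdc25b and Fzr1. The share of all genes under that p was not counted. Cdc25b differed by 0.37 (95% interval 0.21 to 0.53, adjusted p = 0.130002) and Fzr1 by 0.25 (95% interval 0.08 to 0.42, adjusted p = 0.434), the 3 HIF2A cKO libraries of each lying above the 3 WT ones. Other fits, given here without the share of all genes called in them, differed. In a fit of the estrus libraries alone, which tested 24 members, both were called higher, as they were with library weights. Besides these, Foxm1, Smc2 and Smc4 stood lower in HIF2A cKO without overlap, so 5 of 48 members did not overlap between the genotypes, where 26.4% of all genes did not. Incenp was the next highest at 0.19, with 4.09, 4.03 and 4.27 FPKM in WT and 4.99, 4.15 and 5.52 FPKM in HIF2A cKO, and its libraries overlapped. Hmmr, the lowest, was at 0.684, 0.366 and 0.396 FPKM in WT and 0.313, 0.203 and 0.397 FPKM in HIF2A cKO, and Top2a at -0.16 and Ndc80 at -0.16 came next, also with overlap. The summed FPKM of the 48 genes was 104 ± 11.0 (SD, n = 3) in WT and 108 ± 6.09 (SD, n = 3) in HIF2A cKO at estrus.

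The difference between the genotypes' cycle changes was not called for any member in limma, where 0.0350% of all genes were called in either direction. At an unadjusted p under 0.05 stood 35 of 48 members, all with a deeper fall in HIF2A cKO. The share of all genes under that p was not counted, so this count does not set the members apart. The median interaction of the members was -0.60 against -0.01 over all genes. The interaction was negative for 47 of 48 members, Cdc25b at 0.15 being the exception, and positive for 6878 of all 14278 genes tested. It was largest for Ube2c at -1.07 (adjusted p = 0.117), Plk1 at -0.999 (adjusted p = 0.0866) and Ccnb1 at -0.78 (adjusted p = 0.102). Fzr1 at -0.21 and Smc4 at -0.24 had the smallest negative values. The lowest adjusted p was that of Foxm1, 0.0771, at -0.66. Other settings moved this count from 0 to 38: without HIF2A cKO diestrus replicate 3 it was 33, without WT diestrus replicate 2 it was 6, without both diestrus libraries numbered 3 it was 30, with library weights it was 38 and with the replicate block it was 12. Among single libraries the count thus turned most on HIF2A cKO diestrus replicate 3. The share of all genes called in each of these fits is not given here, so the counts describe the members alone.

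Most other genes of each of these pathways also fell over the cycle, where 34.1% of all genes tested fell in WT and 36.5% in HIF2A cKO. Of all genes tested 13.8% were higher in HIF2A cKO at diestrus, the share that stands beside the diestrus counts of these lists. Of 31 other kinetochore and centromere genes 30 fell in WT and 31 in HIF2A cKO, led by Cenpm (-1.78 and -2.40), a centromere protein, and at diestrus 11 were higher in HIF2A cKO, Cenpm by 0.58 and Casc5, the kinetochore scaffold KNL1, by 0.56. Cenph, an inner kinetochore protein, changed by -1.71 in WT. Of 24 other spindle and cytokinesis genes 23 fell in both genotypes and Numa1, a spindle pole protein, rose by 0.29 and 0.60. At diestrus 14 of the 24 were higher in HIF2A cKO and Numa1 was lower at -0.28. Racgap1, a partner of KIF23 in the central spindle, changed by -2.42 and -3.13 and was higher in HIF2A cKO by 0.74. Ckap2, a microtubule-associated protein, changed by -2.47 in WT, Kif22, a chromosome-bound kinesin, by -2.95 in HIF2A cKO, and Fam83d, a spindle protein, was higher in HIF2A cKO at diestrus by 0.74.

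Of 17 other regulators of mitotic entry 14 fell in WT and 15 in HIF2A cKO, beside 34.1% and 36.5% of all genes. Nek9 rose in both genotypes. Pbk, a mitotic kinase, changed by -3.33 and -3.72, and Cdca3 changed by -2.43 and -3.12. At diestrus 10 of the 17 were higher in HIF2A cKO, beside 13.8% of all genes, Cdca2 by 0.74 and Gtse1 by 0.70. Wee1, the kinase that restrains CDK1, at -0.42 and Nek7 at -0.17 were lower in HIF2A cKO. Subunits and regulators of the anaphase-promoting complex had small differences: of 16, 13 fell in each genotype, the list medians being -0.41 in both, and at diestrus 3 were higher and 2 lower in HIF2A cKO, beside the 13.8% of all genes that rose there. Fbxo5, the inhibitor EMI1, changed by -1.49 and -1.72, and Trip13, which takes the checkpoint complex apart, changed by -1.31 and -1.82. Ube2s, the enzyme that extends ubiquitin chains on the complex's substrates, was higher at diestrus in HIF2A cKO by 0.60, and Mad2l2 was lower at -0.31.

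Of 15 cohesin and other condensin genes 11 fell in WT and 12 in HIF2A cKO, beside 34.1% and 36.5% of all genes. The falls were led by Esco2 (-2.14 and -2.27) and Cdca5 (-1.60 and -2.28), which set up cohesion in S phase. At diestrus 3 were higher and 1 lower in HIF2A cKO, beside the 13.8% of all genes that rose there, and the list median was -0.009. Cdca5 by 0.63 and Ncaph2, of condensin II, by 0.29 rose the most. Of 20 DREAM, MuvB and E2F transcription regulators 14 fell in WT and 15 in HIF2A cKO, and E2f1 changed by -1.66 and -1.95 and E2f8 by -1.49 and -2.32. At diestrus 6 of the 20 were higher in HIF2A cKO, E2f8 by 0.58, beside the same 13.8% of all genes. Of the 20, 2 were lower, Rbl2, the pocket protein p130, at -0.54, and the list median was 0.17. All 30 DNA replication genes, which act in S phase before the genes of mitosis, fell in both genotypes, with medians of -1.38 and -1.83. Rrm2, a subunit of ribonucleotide reductase, changed by -2.51 and -2.9998, and Mcm6, a subunit of the replicative helicase, by -2.37 and -2.95. At diestrus 4 of the 30 were higher in HIF2A cKO, a share near the 13.8% of all genes tested that rose there, Fen1 by 0.44 and Cdc45 by 0.44 the most, with a list median of 0.28 beside 0.53 for the 48 members. At estrus no gene of these lists was called between the genotypes in limma, nor was any in the interaction.

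The steroid receptor genes are given as values beside these changes. Pgr, which encodes the progesterone receptor, went from means of 74.5 to 28.04 FPKM in WT and of 71.4 to 24.4 FPKM in HIF2A cKO, with log2 differences of -1.34 and -1.51. Esr1, the estrogen receptor, was 83.8 FPKM in WT and 106 FPKM in HIF2A cKO at diestrus, a rise of 0.33 (adjusted p = 0.0164 in limma). Cell type markers moved over the cycle as well. Of 13 tested epithelial markers 10 rose and 1 fell at estrus in WT, where 23.0% of all genes tested rose and 34.1% fell. Their WT sums ran from 510 to 724 FPKM at diestrus and from 1185 to 1434 FPKM at estrus. In HIF2A cKO their sums ran from 602 to 1130 FPKM at diestrus and from 1497 to 1692 FPKM at estrus. Of 12 stromal markers 8 fell and 2 rose in WT, and of 8 tested macrophage markers 7 rose, with sums of 420 to 628 FPKM at diestrus and 801 to 898 FPKM at estrus. The part of these shifts in the members' fall was not tested.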

How the data were processed

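RNA sequencing of whole uteri gave 14 libraries in 4 groups. The authors deposited 1 table of FPKM values for 31274 gene symbols. TopHat2 2.0.4, Cufflinks 2.0.2 and the mouse build mm10 are named per the submitters' processing notes. Roles, options and annotation: not given in the sources used here. Depth is unknown, since read counts were not used here, and no counting error can be given. FPKM divides by the library total, so genes that take many fragments lower the others.

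Values were analysed as log2(FPKM + 1), with a pseudocount of 1, in limma 3.58.1 with R 4.3.3. The 14278 genes that reached 1 FPKM in 3 or more libraries were tested. A single fit of the 14 libraries estimated each group mean, eBayes used a mean-variance trend, and p-values were adjusted over all genes by Benjamini-Hochberg, with a threshold of 0.05. Possible failed estimates were left out: 11 genes listed at 0 throughout some group although another group averaged 50 FPKM or more, namely C3, Col1a1, Col1a2, Col3a1, Eef1a1, Fcgbp, Ltf and 4 small RNAs. None is a member. Epas1 was tested with an exact permutation test. The fit was tested on simulated data.

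Every member may be named. Values in every library are given for a set of members chosen by role and, per comparison, for those with the 3 highest and 3 lowest differences. From each pathway list the 2 largest called changes per comparison are named, except 1 gene that is not reported here. Other genes of the lists named were chosen after their values were seen. The members and lists were chosen with earlier results of these data known.

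Gene coordinates (1-based) come from GENCODE M21, which uses mm10. Promoters are from RefSeq (GRCm38.p6), and bases inside a GENCODE transcript were not printed. Replicate numbers recur across the groups in the labels. Same-numbered diestrus libraries had deviations from their group means that correlated at r of 0.321, 0.115, 0.622 and 0.217 over genes. Differently numbered ones had r from -0.454 to 0.262, a range that covers the values of the pairs numbered 2 and 4. At estrus r was 0.08, 0.096 and -0.047 for the same numbers. No label states a pairing, so the main fit used none, and the replicate block was only an alternative. Alternatives were other pseudocounts, filters, scalings, eBayes settings, library weights, fits of the libraries compared alone, a replicate block, leaving out single libraries, a 2-fold minimum, and other promoter windows and letters.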

Additional observations from a re-analysis of the deposited data

How the results depend on the processing

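No direction of a median over the members reversed under any alternative tried in the cycle comparisons, between the genotypes at diestrus, or in the interaction. The members' median between the genotypes at estrus, -0.03 in the main fit, turned positive when WT estrus replicate 1 was left out, so it has no stable direction. The fall from diestrus to estrus was called for the 47 WT and 48 HIF2A cKO members under every alternative without a fold minimum that tested them, up to 21. Cdc25c, Cenpe, Cenpf, Espl1 and Ttk were tested in 20. The medians of these falls depended on the pseudocount: -3.12 in WT and -3.88 in HIF2A cKO with 0.1, and -1.02 and -1.44 with 5, since many estrus values lie near or under 1 FPKM. Median-of-ratios scaling shifted the median of all genes by 0.08 in both cycle comparisons and raised the share of higher genes among all calls from 40.3% to 50.7% in WT and from 41.1% to 50.03% in HIF2A cKO. It left every member's call there as it was.

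At diestrus the number of members higher in HIF2A cKO was 25 in the fit of the diestrus libraries alone and 0 with a 2-fold minimum. With each library left out in turn it ran from 29, without HIF2A cKO diestrus replicate 2, to 46, without HIF2A cKO diestrus replicate 3. With the replicate number as a block it was 45 in all 14 libraries and 35 in the diestrus libraries alone. These counts stand here without the share of all genes called in the same fits, so they describe the members alone. Of the 38 members called, 24 were called under all of up to 23 alternatives without a fold minimum. The other 14 were lost in at least 1: Birc5, Bub1, Ccna2, Cdc25b, Cdca8, Cdk1, Cenpf, Hmmr, Kif4, Ncapg, Nuf2, Spc24, Top2a and Ttk. Of the 10 not called, 9 were called in at least 1 alternative and Smc4 in none.

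At estrus the number higher in HIF2A cKO was 2, Cdc25b and Fzr1, with library weights and in the fit of the estrus libraries alone. The number of members with a deeper cycle fall in HIF2A cKO was 1 with a pseudocount of 5, 38 with library weights, 12 with the replicate block in all 14 libraries, and 30 without both diestrus libraries numbered 3, which was chosen after the data were seen. With each library left out in turn it ran from 0 to 33. Here too the share of all genes called in the same fits is not given. The cause of these shifts was not tested. Epas1 stayed higher in HIF2A cKO with each library left out, by 2.68 to 7.54 FPKM at diestrus and 6.02 to 9.88 FPKM at estrus. In a window of 100 bases CHR-type letters occurred in 25.6% of the members in the promoter table, against 7.2% of all genes. The unknown depth limits the lowest estrus levels most.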

Other observations

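Some ratios between members that act together differed by stage, or by genotype at diestrus. These ratios of FPKM, which are levels per length, were picked after their values were seen and are descriptions without a test. Plk1 over Top2a at diestrus averaged 0.285 ± 0.0447 (SD, n = 4) in WT and 0.426 ± 0.0673 (SD, n = 4) in HIF2A cKO, with libraries from 0.247 to 0.343 and from 0.366 to 0.485. Ccnb1 over Ccna2, cyclin B1 over cyclin A2, averaged 0.461 ± 0.052 at diestrus in WT and 0.618 ± 0.105 in HIF2A cKO. Both ratios were higher in all 4 HIF2A cKO diestrus libraries than in any WT diestrus library, while at estrus the genotypes overlapped in both. Among other ratios looked at, Cdc25c over Cdc25b and Bub1b over Bub1 also stood apart at diestrus. Ube2c over Top2a and Smc4 over Ncaph overlapped between the genotypes there. Cdc20 over Fzr1, the metaphase activator over the late one, was 0.841 ± 0.104 in WT diestrus and 0.0875 ± 0.0211 in WT estrus, and 1.13 ± 0.205 and 0.0815 ± 0.00946 in HIF2A cKO. Its genotypes overlapped at both stages. At diestrus the activators were thus present at like levels, while at estrus nearly all of the pair was Fzr1.

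Over the 8 diestrus libraries, the median pairwise correlation of the members' log2(FPKM + 1) was 0.883. After the group means were removed it was 0.706. The cell makeup and scaling of a library are shared by all its genes, and no such value is given here for other genes. Fzr1 went least with the rest, with r of -0.116 to the mean of the other members after group means were removed, followed by Ncapd2 at 0.123 and Nuf2 at 0.247. Fzr1 was also the member that differed least over the cycle.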
